A study of Mus musculus with 2 samples.

Results

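The genes of the exocrine pancreas, 34 of the 43346 genes in the tables, were followed in whole stomachs of mouse embryos. The members were taken from a list of digestive enzymes, granule proteins and acinar regulators, found by gene identifier, with no threshold on a measured value, though the list was drawn up with earlier results of these data known. All 34 were matched and all had counts in both libraries. They comprised 2 regulators, 14 proteases (6 trypsins, 3 chymotrypsins, 3 elastases and 2 carboxypeptidases), 5 genes of fat digestion (lipases and colipase), 1 amylase, 1 ribonuclease, 8 granule and secreted proteins, and 3 proteins of the secretory pathway. The series holds 1 group of unmodified, untreated embryos of the strain B6NCrl at embryonic day 15.5. Its 2 biological replicates were separate pools of stomachs from embryos of both sexes, 78 embryos in replicate 1 and 62 in replicate 2. Total RNA above 200 nucleotides was sequenced from 10 ng of input with ERCC spike-ins, RNAs of known amount added to the sample. With no second condition, the comparisons open to these data are between genes, between the 2 pools, and between transcripts of a gene.

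Acinar cells of the pancreas make digestive enzymes, most of them as inactive zymogens, and store them in granules until a meal triggers their release into the duct. The transcription factor complex PTF1, in which PTF1A pairs with a common bHLH protein and with RBPJL or its relative RBPJ, drives the enzyme genes. In the embryo the pancreas buds from the gut tube directly beside the stomach, and its acinar cells begin to make enzymes before birth. The stomach's own chief cells secrete pepsinogen and, in the adult, gastric lipase.

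Levels are given in TPM, a unit that divides a gene's reads by its effective length and brings every library to the same total, so that genes can be compared. Detection meant at least 1 TPM in each library. The tables held 44038879 and 45625704 estimated read counts for replicates 1 and 2, of which spike-ins took 1.88% and 3.0%. The 6 forestomach markers, 3 of them keratins, summed to 2553 and 1332 TPM. Of the 6 markers of gastric chief cells 4 were detected. The highest in both libraries was pepsinogen C (Pgc), at 58.8 and 42.5 TPM, and the lowest was gastric lipase (Lipf), at 0.05 TPM in each. The labels name stomach as the only tissue. Which cells of the pools held the exocrine transcripts was not tested, and in bulk RNA a larger number of cells cannot be told apart from more RNA per cell.

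Of the 34 exocrine genes 30 were detected, against 35.9% of all genes. The median level of the members was 71.9 TPM in the first pool and 83.0 TPM in the other. At 100 TPM or more in both libraries were 13 members, among 1560 genes in all, and at 1000 TPM or more were 3, the lipase relative Pnliprp1, colipase (Clps) and chymotrypsinogen B (Ctrb1), among 103 genes in all. By mean TPM these 3 ranked 21st, 23rd and 26th of all genes. The 4 members below 1 TPM were pancreatic lipase (Pnlip), chymotrypsin C (Ctrc) and the granule membrane proteins Gp2 and Cuzd1. Together the 34 genes held 11887 TPM in replicate 1 and 14808 TPM in replicate 2, or 13348 ± 2065 TPM (SD, n = 2), and 0.805% and 1.03% of the counts on genes.

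**Figure D1:**
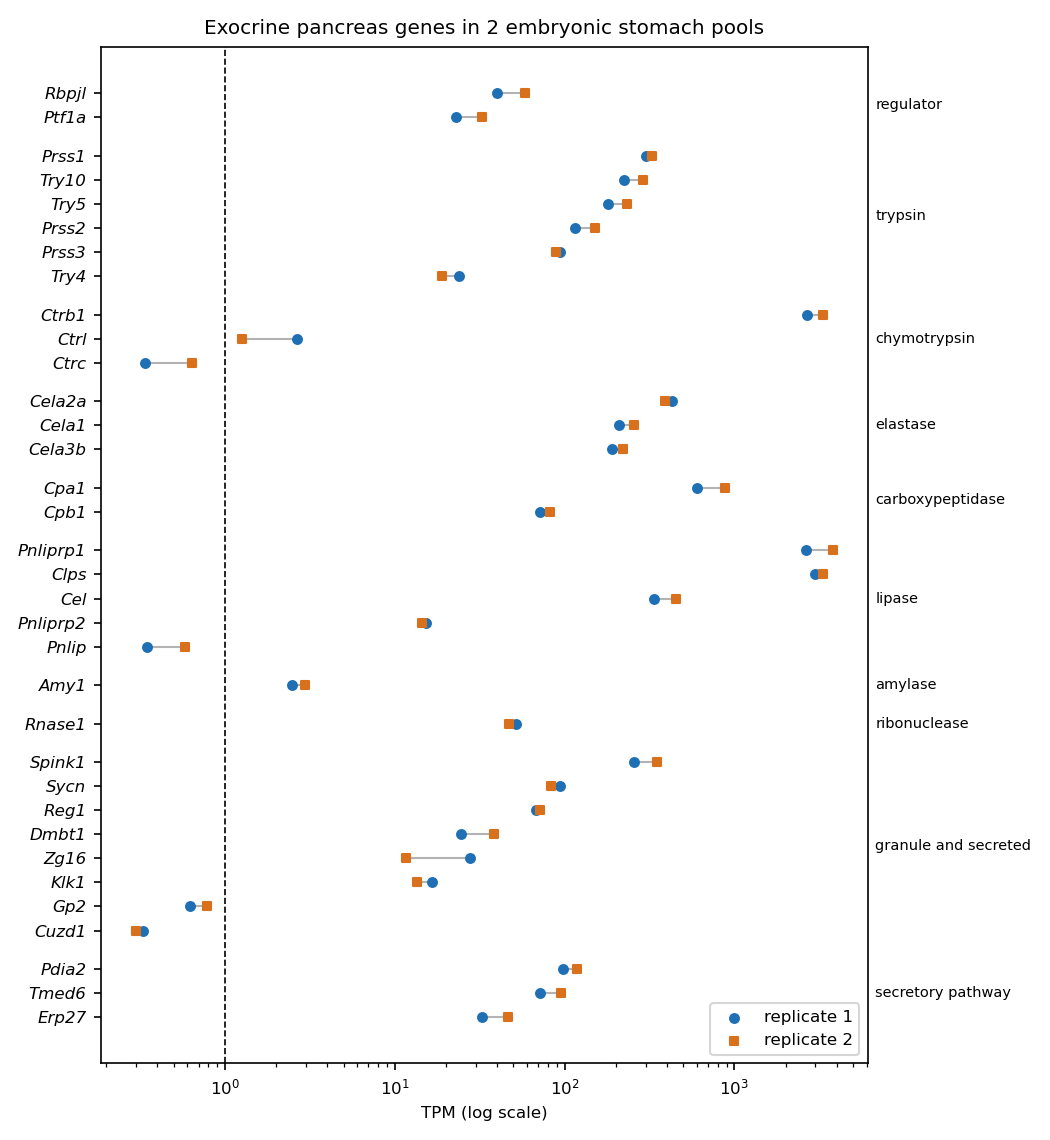
TPM of each of the 34 genes on a log axis, grouped by class; circles are replicate 1, squares replicate 2, the grey bar joins them, and the dashed line marks 1 TPM. Pnliprp1, Clps and Ctrb1 lie above 1000 TPM in both pools, and Ctrc, Pnlip, Gp2 and Cuzd1 lie left of the line in both.

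The order of the members was clear only in steps. Of the 33 neighbouring pairs in the order of mean TPM, 22 had ranges over the libraries that overlapped. Pnliprp1, Clps and Ctrb1 overlapped one another, and the lowest of their values, 2629 TPM, lay above the highest value of the next gene, carboxypeptidase A1 (Cpa1), at 878 TPM. Another gap followed Pnliprp2, whose lower value of 14.4 TPM lay above the 2.97 TPM that was the higher value of Amy1. The 5 genes from Prss1 to Try5 in this order (Prss1, Spink1, Try10, Cela1, Try5) each overlapped the next one.

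The lipase class, lipases and colipase together, took the larger share of the members' summed TPM, 50.7% ± 0.59 (SD, n = 2). The 14 proteases took 42.6% ± 0.44. Of the 5976 and 7569 TPM of the lipase class, 2997 and 3302 TPM were Clps, a cofactor. Without Clps that class lay below the proteases, which summed to 5105 and 6267 TPM. Chymotrypsins held 22.4% ± 0.012, trypsins 7.71% ± 0.26, elastases 6.41% ± 0.77 and carboxypeptidases 6.07% ± 0.59. Granule and secreted proteins held 3.98% ± 0.16, secretory pathway proteins 1.73% ± 0.033, and both regulators together 0.574% ± 0.060. A single gene made up most of the chymotrypsin class and 2 genes most of the lipase class, as described next.

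**Figure D2:**
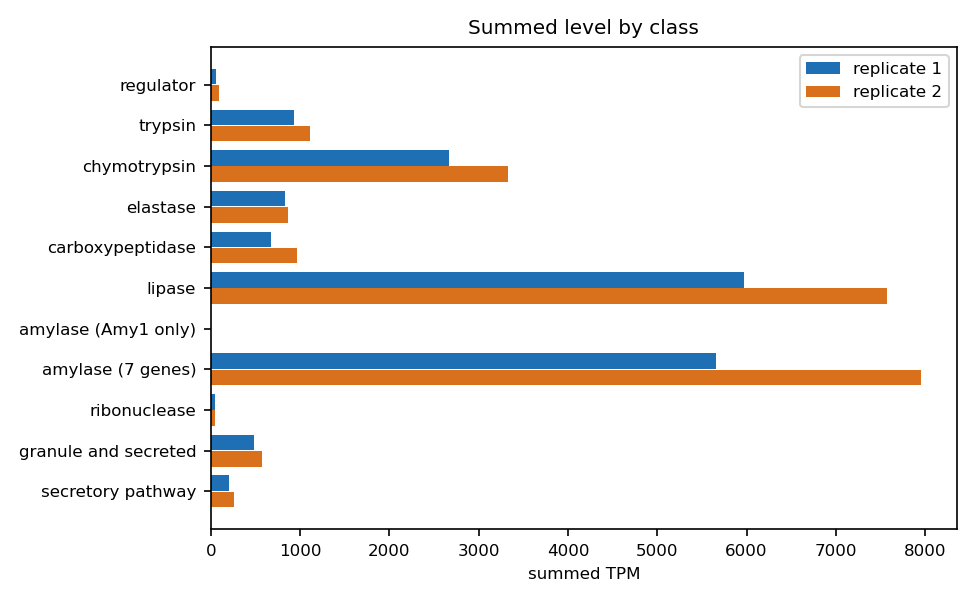
Summed TPM of each class in both libraries, with the 7 genes of the amylase locus drawn as a bar pair of their own beside Amy1, the only amylase among the 34 members. Lipases with colipase sum to 5976 and 7569 TPM, chymotrypsins to 2667 and 3325, and the amylase locus to 5654 and 7958, while Amy1 alone is too low to be seen.

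Pancreatic triglyceride lipase and its relatives lay far apart in level, although they are neighbours on chromosome 19 and have the same strand. Pnlip, the main fat-splitting lipase of the adult pancreas, stood at 0.35 and 0.58 TPM, with 15 and 25 counts. Pnliprp1, a related protein with little known lipase activity, stood at 2629 and 3797 TPM, with 123385 and 178960 counts. Its level was 7510 times that of Pnlip in replicate 1 and 6550 times in replicate 2, a mean log2 difference of 12.78 ± 0.14 (SD, n = 2). Pnliprp2, which also splits plant galactolipids, lay between them at 15.2 and 14.4 TPM, and Pnliprp1 exceeded it 173-fold and 264-fold. No 100-base stretch of the transcripts of these 3 genes occurs in another gene, and all 3 had whole counts in both libraries.

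Clps, the cofactor that anchors pancreatic lipase to fat droplets, stood at 2997 and 3302 TPM, so its transcript was abundant while that of Pnlip was below 1 TPM. Cel, the bile salt-stimulated lipase of pancreas and milk, stood at 334 and 455 TPM, and Pnliprp1 exceeded it 7.87-fold and 8.35-fold. Thus 3 of the 5 genes of this class stood at 334 TPM or more in both pools, and the other two at 15.2 TPM or less.

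The 250 bases before the start sites of the 3 neighbours are printed because their levels differ so much, with those of Cel and of the trypsin gene Prss2, which held the motifs searched most often and in the fullest set. They are RefSeq promoters on build GRCm38.p6, written 5′ to 3′ on the gene's own strand and ending at the base before the start. Capitals mark matches on either strand to CACCTG, an E-box of the kind that PTF1 binds, TTTCCCA, the box bound by RBPJ and RBPJL, and TATAAA, the TATA box. No matches overlapped in these promoters. The windows lie at chr19:58670115-58670364, chr19:58728637-58728886 and chr19:58759473-58759722 on the plus strand, at chr2:28563404-28563653 on the minus strand and at chr6:41521526-41521775 on the plus strand.
Pnlip: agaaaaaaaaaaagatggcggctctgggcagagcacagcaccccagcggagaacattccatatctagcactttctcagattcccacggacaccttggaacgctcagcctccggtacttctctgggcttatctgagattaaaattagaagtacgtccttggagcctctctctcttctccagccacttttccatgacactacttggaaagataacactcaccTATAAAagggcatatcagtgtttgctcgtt
Pnliprp1: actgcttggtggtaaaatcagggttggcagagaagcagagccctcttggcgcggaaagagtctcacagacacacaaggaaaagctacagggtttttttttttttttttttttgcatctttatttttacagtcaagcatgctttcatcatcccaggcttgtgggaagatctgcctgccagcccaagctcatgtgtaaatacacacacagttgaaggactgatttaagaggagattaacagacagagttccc
Pnliprp2: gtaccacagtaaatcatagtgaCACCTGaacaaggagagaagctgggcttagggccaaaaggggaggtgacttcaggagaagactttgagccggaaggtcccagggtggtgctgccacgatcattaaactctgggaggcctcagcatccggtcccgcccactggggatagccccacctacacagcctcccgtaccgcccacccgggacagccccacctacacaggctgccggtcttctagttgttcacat
Cel: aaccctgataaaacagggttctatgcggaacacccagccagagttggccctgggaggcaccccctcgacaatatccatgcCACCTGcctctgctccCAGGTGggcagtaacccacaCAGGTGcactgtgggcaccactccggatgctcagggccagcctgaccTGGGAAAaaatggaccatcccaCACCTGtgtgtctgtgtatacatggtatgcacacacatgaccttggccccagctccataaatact
Prss2: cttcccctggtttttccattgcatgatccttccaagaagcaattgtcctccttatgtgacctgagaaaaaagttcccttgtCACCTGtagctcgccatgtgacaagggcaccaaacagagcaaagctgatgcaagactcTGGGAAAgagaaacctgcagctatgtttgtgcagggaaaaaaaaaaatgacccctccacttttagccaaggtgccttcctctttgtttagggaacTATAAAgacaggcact

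Pnlip, near zero in these pools, held a TATA box beginning 30 bases before the start. Pnliprp1, the highest of the 34 genes by mean TPM, held none of the 3 motifs in its window, and Pnliprp2 held 1 E-box, 228 bases before the start. Cel held 4 E-boxes, beginning 170, 154, 134 and 65 bases before the start, and the RBPJ box at 87 bases. Prss2 held an E-box at 169 bases, the RBPJ box at 111 and a TATA box at 16. Over the whole class, 26 of the 34 members had an entry, with 27 promoters because Amy1 has 2 start sites in the table. CACCTG occurred in 15 of the 27 (55.6%), against 17.2% of all 32851 promoters of the same length. TTTCCCA occurred in 6 (22.2%, against 6.82%), TATAAA in 9 (33.3%, against 12.4%), and both CACCTG and TTTCCCA in 3 (11.1%, against 1.17%), namely Cel, Cela2a and Prss2. The trypsin promoters share sequence, so the 27 are not independent, and a match to these letters is not a bound site.

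Among the 3 chymotrypsins, proteases that cut after aromatic and large hydrophobic residues, Ctrb1 stood at 2664 and 3323 TPM. Ctrl, a chymotrypsin-like protease, stood at 2.67 and 1.27 TPM, and Ctrb1 exceeded it 998-fold and 2620-fold. Ctrc, which cleaves trypsinogens and so tunes their activation, stood at 0.34 and 0.64 TPM with 9 and 17 counts. The Ctrc gene (chr4:141814962-141846359, mm10) overlaps Cela2a (chr4:141814962-141826160), and 13.8% of the 100-base windows of Ctrc are shared with it, so the few counts of Ctrc are uncertain. The deposited posterior SD was 15.1% and 11.5% of the posterior mean count of Ctrc.

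All 3 elastases stood above 100 TPM in both pools. Cela2a stood at 428 and 389 TPM, Cela1 at 209 and 257 TPM, and Cela3b at 190 and 222 TPM. Cela2a was above the other two in both libraries, and the ranges of Cela1 and Cela3b overlapped. Cela3b shares 6.64% of its windows with its near copy Cela3a, which stood at 0.30 and 0.21 TPM.

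Carboxypeptidases trim residues from the ends of peptides that the other proteases release. Cpa1, which removes aromatic and aliphatic residues, stood at 600 and 878 TPM, and Cpb1, which removes basic ones, at 72.2 and 82.3 TPM. Cpa1 exceeded Cpb1 8.32-fold and 10.7-fold.

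Trypsins activate the other zymogens after their own activation peptide has been removed in the gut. The trypsin genes lie in a cluster on chromosome 6, and 8 of them are annotated as protein-coding between Try4 and Prss2, among them 2 outside the 34 genes, Gm5771 and Gm10334. The coding sequences of the 6 members were 88.6% to 97.4% identical to one another. The 60 coding bases around the junction between activation peptide and mature enzyme (coding bases 46 to 105, exon 2 of each gene) are printed because they show how alike the genes are where reads must be divided. The sequences are from GENCODE M21 on mm10, 5′ to 3′, with capitals at the bases that differ from Prss2. They lie at chr6:41522822-41522881, chr6:41461186-41461245, chr6:41303289-41303348 and chr6:41355457-41355516 on the plus strand, and at chr6:41376903-41376962 and chr6:41313444-41313503 on the minus strand.
Prss2: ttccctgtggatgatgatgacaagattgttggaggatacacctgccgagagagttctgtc
Prss1: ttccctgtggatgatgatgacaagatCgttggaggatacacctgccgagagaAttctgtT
Prss3: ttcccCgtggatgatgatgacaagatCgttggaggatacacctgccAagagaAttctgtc
Try4: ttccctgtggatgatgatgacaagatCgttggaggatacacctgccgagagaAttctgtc
Try5: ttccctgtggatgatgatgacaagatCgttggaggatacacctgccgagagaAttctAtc
Try10: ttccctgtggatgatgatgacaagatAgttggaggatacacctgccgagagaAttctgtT

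In this window Try4 differed from Prss2 at 2 of 60 bases, Prss1, Try5 and Try10 at 3, and Prss3 at 4. The run of gat and gac codons for the aspartates before the cleavage site, and the aag codon for the lysine after which it is cut, were the same in all 6. Over the whole transcripts the genes were more distinct. Each 100-base window of Prss2 was found in no other gene, while 55.0% of the windows of Prss3, 69.8% of Try4, 77.5% of Try5, 78.2% of Prss1 and 88.4% of Try10 were unique. Prss3 and Gm10334, with coding sequences 99.1% identical, were the closest pair of the cluster.

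Prss1 stood at 301 and 329 TPM, Try10 at 223 and 290 TPM, and Try5 at 181 and 234 TPM. Prss2 stood at 116 and 152 TPM, Prss3 at 93.4 and 89.1 TPM, and Try4 at 24.0 and 18.9 TPM. Prss1 was the highest of the 6 in both libraries and Try4 the lowest. The deposited posterior SD, which measures how uncertain the division of reads was, as a percent of the posterior mean count was at most 0.399% for Prss1, Prss2, Try5 and Try10. It reached 1.48% and 1.56% for Prss3 and 2.96% and 3.49% for Try4. Outside the member list, Gm5771 stood at 78.4 and 70.1 TPM and Gm10334 at 85.8 and 73.3 TPM.

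Summed over the 6 members, trypsin transcripts stood at 938 and 1114 TPM, or 1026 ± 124 TPM (SD, n = 2). Over the 8 protein-coding genes the sum was 1102 and 1257 TPM. Of the 7 annotated pseudogenes of the cluster, Gm5409 had 6.31 and 1.03 estimated counts and the others had 0. Ctrb1 alone exceeded Prss1, the highest trypsin, 8.84-fold and 10.1-fold.

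Amy1 encodes the salivary and liver amylase, which splits starch as the pancreatic enzymes do, and was the only amylase among the 34 genes. It stood at 2.50 and 2.97 TPM, with 130 and 137 estimated counts. Elsewhere in the locus on chromosome 3, the pancreatic genes Amy2a2, Amy2a3, Amy2a4 and Amy2a5 together stood at 5583 and 7866 TPM. The annotated coding sequences of these 4 genes were identical, and no 100-base window of Amy2a2, Amy2a3 or Amy2a4 was unique. Of the windows of Amy2a5 55.7% were unique, yet its posterior SD was 54.3% and 55.7% of its posterior mean count. The posterior SD reached 78.3% of the posterior mean count of Amy2a2 in replicate 1. The sum of the 4 genes can therefore be read, and the split between them cannot. Amy2b, whose transcript Amy2b-201 is annotated as an unprocessed pseudogene, stood at 68.5 and 88.6 TPM, with 88.6% of its windows unique. Amy2a1 stood below Amy1, at 0.18 and 0.86 TPM with 4.41 and 21.0 estimated counts, and its posterior SD was 72.5% and 37.1% of the posterior mean count. Since 30.8% of the windows of Amy1 occur in the overlapping gene Rnpc3, reads from there cannot be assigned by their sequence. With all genes of the amylase locus added, the annotated pseudogene Amy2b included, 40 genes held 17539 and 22763 TPM, or 1.45% and 1.93% of the counts on genes.

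**Figure D3:**
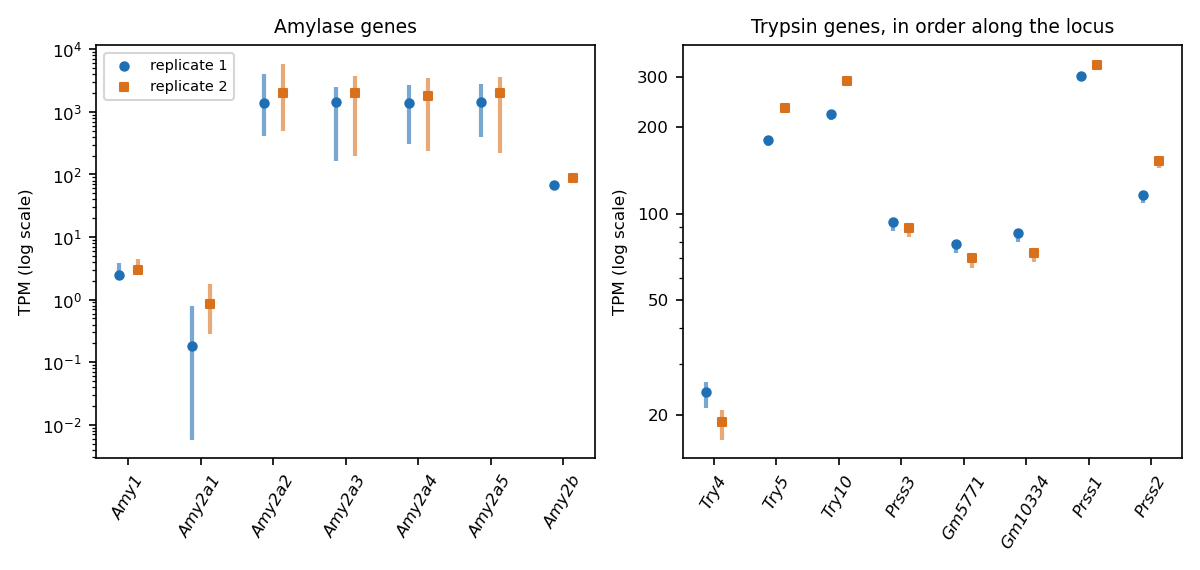
TPM on log axes of the 7 genes of the amylase locus, of which Amy2b is annotated as a pseudogene (left), and the 8 protein-coding trypsin genes in their order along chromosome 6 (right). Points are the deposited TPM, bars the deposited interval bounds, circles replicate 1 and squares replicate 2. The intervals of Amy2a2 to Amy2a5 are several-fold wide, while those of the trypsin genes are close to their points.

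Both regulators were detected. Ptf1a stood at 22.9 and 32.4 TPM and Rbpjl at 40.2 and 58.8 TPM, so Rbpjl was 1.75 and 1.81 times as high. Rbpj, the broadly expressed relative that RBPJL replaces in the complex as acinar cells mature, stood at 19.5 and 22.8 TPM, and Rbpjl exceeded it 2.06-fold and 2.58-fold. These ratios are of whole genes, not of coding transcripts. The coding transcript Rbpjl-201 held 52.6% and 53.0% of the Rbpjl TPM. For Ptf1a only the coding transcript Ptf1a-201 was annotated, so its share of 100% was fixed beforehand. Ptf1a shares 29.6% of its windows with the opposite-strand gene Ptf1aos. Whether the counting used strand was not given in the sources used here, so reads of that pair cannot be told apart.

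Other genes that regulate the pancreas spanned a wide range. All 17 regulators on a separate list were detected, from Mnx1 at 2.54 and 1.80 TPM upward, the highest being Xbp1, a factor of the secretory stress response, at 237 and 249 TPM. Nupr1, a stress-induced chromatin protein, stood at 128 and 161 TPM, and Tcf3, which encodes bHLH partners of PTF1A, at 73.5 and 82.3 TPM. Bhlha15 (Mist1), which organises the granule-filled acinar cytoplasm and is also made by gastric chief cells, stood at 17.9 and 27.9 TPM, and Nr5a2, a nuclear receptor that acts with PTF1, at 5.16 and 6.56 TPM. Mnx1, Bhlha15 and Nr5a2 were named after their values were seen.

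Proteins that share the granule with the enzymes spanned a range from Spink1 to Cuzd1. Spink1, the inhibitor that blocks trypsin inside the granule, stood at 255 and 352 TPM, a range that overlapped those of Prss1 and Try10 and lay above those of the other 4 trypsin members. Sycn (syncollin, bound to the granule membrane) stood at 93.6 and 83.6 TPM, and Reg1, a secreted lectin-like protein, at 67.4 and 71.3 TPM. Dmbt1, a large scavenger receptor protein also made by gut epithelium, stood at 24.6 and 38.3 TPM. Zg16, a lectin of zymogen granules and of intestinal goblet cells, stood at 27.9 and 11.7 TPM. Klk1, tissue kallikrein, stood at 16.7 and 13.5 TPM. Gp2, the main glycoprotein of the granule membrane, stood at 0.62 and 0.79 TPM with 36 and 46 counts, and Cuzd1 at 0.33 and 0.30 TPM with 22 and 20 counts. Thus Gp2 and Cuzd1 were below 1 TPM in both pools, while the other 6 genes of this class stood at 11.7 TPM or more.

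Rnase1, pancreatic ribonuclease, stood at 51.8 and 46.8 TPM. Of the secretory pathway genes, Pdia2, a protein disulfide isomerase of the pancreas, stood at 98.2 and 118 TPM, Tmed6, a cargo receptor of the p24 family, at 71.7 and 94.9 TPM, and Erp27, a redox-inactive relative of the isomerases, at 32.9 and 46.6 TPM. The 15 genes of the general secretory machinery were all detected, led by P4hb at 797 and 845 TPM, Hspa5 at 770 and 845 TPM and Pdia3 at 604 and 708 TPM.

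Further acinar genes were present outside the 34. Of 20 other acinar genes 19 were matched and 15 detected; besides the amylases, these included Cckar, the receptor through which cholecystokinin triggers secretion, at 55.5 and 77.5 TPM, and Serpini2 at 39.8 and 66.7 TPM, both named after their values were seen. Reg2 had 0 counts in both libraries.

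Markers of other cell types were read beside these levels. All 10 islet markers were detected, with a sum of 681 and 819 TPM, led by Ins2 at 433 and 493 TPM, Iapp at 84.7 and 96.8 TPM and Gcg at 75.5 and 133 TPM. All 7 duct markers were detected, led by Krt19 at 734 and 651 TPM, which gastric epithelium also expresses. None of the 8 salivary gland markers was detected, their sum was 0.46 and 0.33 TPM, and Smr2, Bpifa2, Dcpp2 and Prol1 were at 0 counts in both libraries, which allows up to 3 counts each. Liver markers were present too: all 7 were detected, with a sum of 1787 and 686 TPM, led by Afp at 497 and 203 TPM.

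The pools were then compared gene by gene. Counts were scaled by TMM, rounded, and set against each other by a two-sided exact binomial test, which compares these libraries, not conditions, and takes in counting error alone. With this scaling 24 of the 34 exocrine genes were higher in replicate 2 and 10 lower, but with spike-in scaling 1 (Ctrc) was higher and 33 lower. Of all 20918 tested genes 49.4% were higher with TMM and 3.81% with spike-ins. Spike-ins took a larger share of replicate 2 and moved the median of all genes to -0.68. Among the 10776 genes with at least 1000 counts, 57.1% were higher with TMM, with a median log2 ratio of 0.02. Some members, such as Zg16, had fewer counts than that. The ratios below are those with TMM, and so are relative to the bulk of genes. The members' median log2 ratio was 0.24, against -0.00 over all genes, the middle 50% of which ran from -0.19 to 0.12. Relative to the median of all genes it was 0.24 under both scalings, which had to be so, since a change of scaling shifts all log2 ratios alike. A call needed an adjusted p below 0.05 and a ratio of at least 2-fold. No member was called higher, where the background was 0.808% of all tested genes. Called lower were 2 members, Zg16 and Ctrl, where the background was 5.91%. The members ranged from a log2 ratio of -1.29 (Zg16) to 0.84 (Ctrc).

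**Figure D4:**
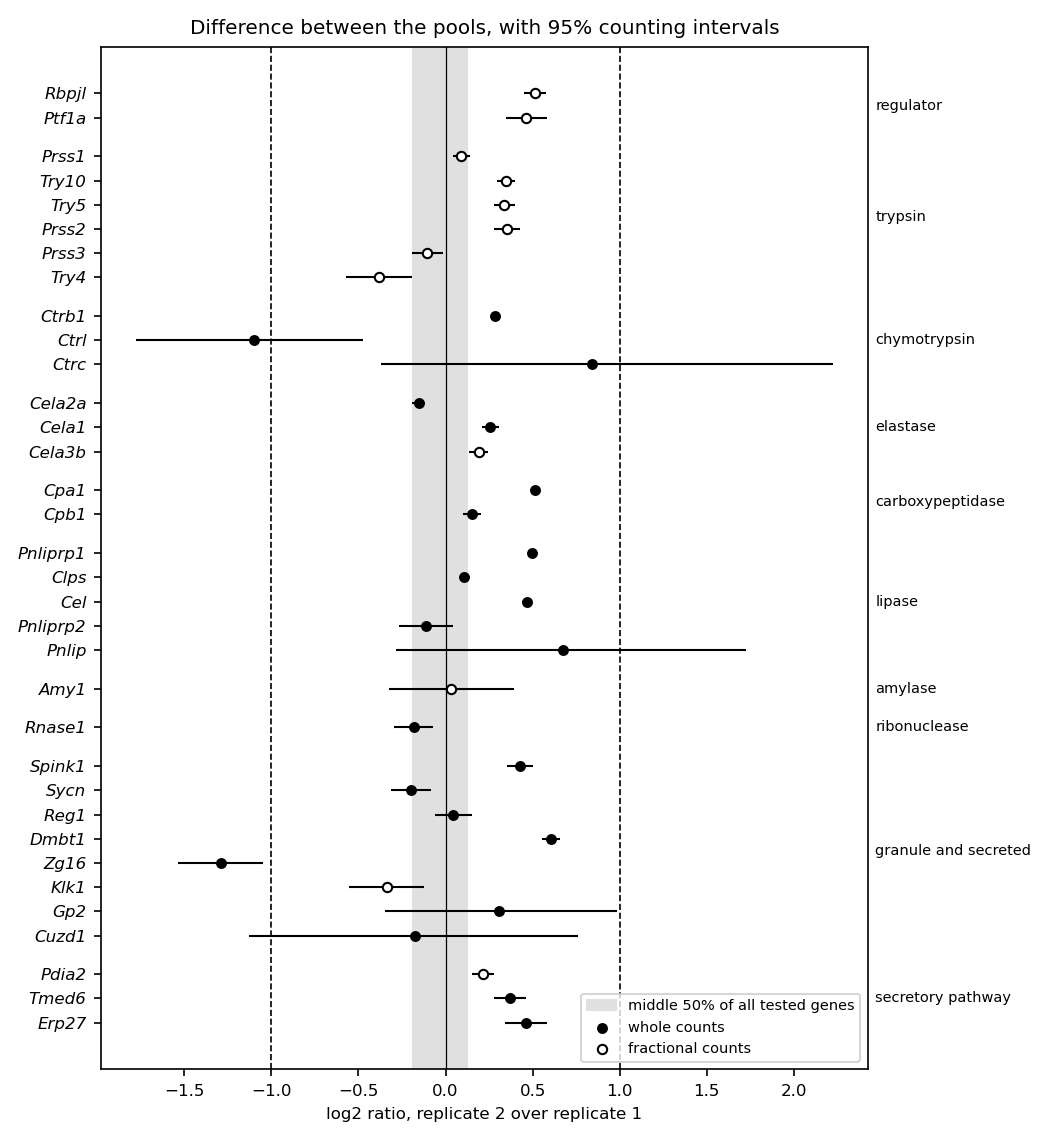
Log2 ratio of replicate 2 over replicate 1 for each gene, scaled by TMM, with exact 95% counting intervals; filled points have whole counts in both libraries, open points fractional counts, the grey band holds the middle 50% of all tested genes and dashed lines mark a 2-fold difference. Most points lie right of 0 and inside the dashed lines, with Zg16 and Ctrl beyond the left one.

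Zg16 had 463 and 195 counts, a log2 ratio of -1.29 with a 95% interval of -1.54 to -1.05 (adjusted p = 2.2e-26, exact binomial test). Ctrl had 65 and 31 counts, a log2 ratio of -1.10 with an interval of -1.78 to -0.47 (adjusted p = 0.00167, exact binomial test). When the spread between the libraries was taken in through a common dispersion (biological coefficient of variation 0.197), the adjusted p of Zg16 was 0.0733 and that of Ctrl 0.603 (edgeR exact test). That test called no member, with 2 members at an unadjusted p under 0.05. By counting error alone 26 of the 34 had an adjusted p below 0.05 in the exact binomial test, 19 higher and 7 lower, against 32.0% of all genes. The test passes smaller differences at higher counts, and these shares were not matched for depth. Most of the members' differences were thus beyond counting error but under 2-fold. The common dispersion came from these same libraries, taken as 1 group. The edgeR test therefore asks only whether a gene differed between them more than genes in general did.

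Most of the most abundant enzymes were higher in replicate 2 with TMM scaling, and lower with spike-in scaling. The exception was Cela2a, above Cel by mean TPM, which was lower with TMM too, at -0.15 (interval -0.19 to -0.12). Pnliprp1 had a log2 ratio of 0.49 (interval 0.48 to 0.50), Cpa1 of 0.51 (0.49 to 0.54), Cel of 0.46 (0.44 to 0.49) and Ctrb1 of 0.28 (0.27 to 0.30). Clps was closer to equality, at 0.10 (0.08 to 0.12). The regulators Ptf1a and Rbpjl had ratios of 0.46 (0.35 to 0.58) and 0.51 (0.45 to 0.58), and Dmbt1 had 0.61 (0.55 to 0.66). The sum of Amy2a2 to Amy2a5 had 0.46 (0.46 to 0.47). Of the regulators on the separate list 14 of 17 were higher and of the other acinar genes 11 of 17, with median log2 ratios of 0.27 and 0.37. No regulator of that list was called, while of the other acinar genes Amy2a1 (log2 ratio 2.21, on few and uncertain counts) was called higher and Reg3b (-1.33) lower, both named after their values were seen.

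Within classes the ratios were not all alike. Among the trypsins Prss2, Try5 and Try10 had log2 ratios of 0.36, 0.34 and 0.35, while Prss1 had 0.09, Prss3 -0.10 and Try4 -0.38. Gm5771 and Gm10334 also had a lower TPM in replicate 2. The sum of the 6 trypsin members had a ratio of 0.21 (interval 0.19 to 0.24), and that of all 8 coding genes 0.15 (0.13 to 0.18). Of the elastases Cela2a had -0.15, against 0.26 for Cela1 and 0.19 for Cela3b. Besides Zg16, Ctrl, Prss3, Try4 and Cela2a, the genes lower in replicate 2 with TMM scaling were Pnliprp2, Rnase1, Sycn, Klk1 and Cuzd1, each with a ratio between -0.34 and -0.11.

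Marker lists differed between the pools as well, in both directions. Higher in replicate 2 with TMM scaling were 8 of 10 islet markers (median log2 ratio 0.17), 5 of 7 duct markers (0.23) and 5 of 6 intestine markers (0.21), none of them called. The duct marker Car2 (log2 ratio -1.04) and the intestine marker Sis (-1.98), the latter named after its values were seen, were called lower. Lower were all 7 liver markers (-1.42, 6 of them called) and all 6 forestomach markers (-1.16, 4 called), and 4 of the 5 chief cell markers tested (-1.12, 2 called). The part of these differences in the ratios of the exocrine genes was not tested.

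Transcripts were compared for the 29 members with at least 100 counts in each library, of which 11 have more than 1 annotated transcript. In 25 of the 29 a single transcript held at least 90% of the gene's TPM in both libraries, and 18 of these have no other transcript in the tables. The 4 exceptions were Rbpjl, Cel, Pdia2 and Amy1. For Rbpjl the coding transcript Rbpjl-201 held 52.6% and 53.0%, the intron-retaining Rbpjl-203 held 28.0% and 27.8%, and the noncoding Rbpjl-202 held 19.4% and 19.2%. These shares differed by less than 1 percentage point between the pools.

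For Cel the coding transcript Cel-201 held 77.0% and 81.1%, and the short noncoding Cel-202 the rest. Pdia2 was divided between Pdia2-201 at 64.1% and 63.1% and the short coding transcript Pdia2-204 at 35.9% and 36.9%. Amy1-202 held 92.1% and 71.1% of Amy1, but these shares rest on 119 and 110 estimated counts. For the abundant enzymes the coding form dominated: Cpa1-201 held 99.3% and 99.5%, Clps-201 held 99.8% and 99.7%, and Cela2a-201 held 90.2% and 92.0%, with the intron-retaining Cela2a-202 at 8.15% and 6.05%.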

How the data were processed

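Each library came from a pool of whole embryonic stomachs, and its gene and transcript tables used the mm10 genome and annotation M4, according to a text file deposited with them. The quantification program and its use of strand are not given in the sources used here. Per the file headers the tables hold expected counts, with reads that match several genes divided among them, and the authors' TPM and FPKM, scaled by effective length. How much of a gene's TPM each transcript holds was deposited as a percent. The deposited posterior SD and interval bounds were used as given, and the level of those intervals was not stated in the headers.

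Symbols, gene types and coordinates came from GENCODE M21 (mm10), matched by gene identifier without its version, with 42462 of 43346 genes matched. Counts were rounded, and spike-ins entered neither sizes nor tests. Sizes came from TMM in edgeR 4.0.16 (R 4.3.3) over 20918 genes whose counts summed to at least 10. A prior count of 0.5 entered each ratio, with Clopper-Pearson intervals, which cover counting error only, since the tables hold no molecular identifiers. P-values came from the exact binomial test (scipy 1.17.1), adjusted by the Benjamini-Hochberg method over all genes tested. A count was whole within 0.005. Read sharing was counted in 100-base windows, on both strands, of the M21 sequences of the counted transcripts. Of the members' transcripts compared, 44 of 58 had the same length in M21 and in the deposited tables, as did 3 of 7 of the Amy2 genes. Shares of windows, those of the Amy2 genes included, are therefore approximate. Promoters came from the RefSeq table (GRCm38.p6), in which 26 of 34 members had an entry.

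All members were named, with the 3 highest genes of each companion or marker list and its genes at 0 counts in both libraries. Genes of the trypsin and amylase loci were named as well. Rbpj, Cela3a and Lipf were named outside this rule, and other exceptions are marked in the text. Of some lists fewer were named, where a result did not turn on them, and 1 gene is not reported here. The members, lists and alternatives were chosen with earlier results of these data known. Alternatives were FPKM, CPM, posterior-mean values, other thresholds of detection, DESeq2 size factors (version 1.42.0), library totals, spike-in sizes, other count minimums and prior counts, whole-count members only, the edgeR exact test, and each library left out.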

Additional observations from a re-analysis of the deposited data

How the results depend on the processing

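Across 9 summary results, 46 of 57 recomputed values kept their direction and, by set limits, their size. The limit was a fixed fold range for counts and the SD of the 2 libraries for sums and shares. For the median log2 ratio it was the half-width of a counting interval. With 2 libraries, leaving out either always keeps a sum or share within that SD, so those values could not move. Scaled by spike-ins, the members' median log2 ratio turned to -0.44 and 1 member was higher in replicate 2. Called lower with that scaling were 4 of 34 members (Ctrl, Klk1, Try4 and Zg16), against 3448 of all 20918 tested genes. All genes shifted by -0.68, so the sign depends on the scaling. The mean over members gave 0.13. With whole-count members only, 15 of 22 were higher. With at least 100 counts, 1 of 29 members (Zg16) was called lower, since Ctrl fell below that minimum and was not tested. The edgeR exact test called 0. In FPKM the members summed to 9199 and the trypsins to 707, since the unit differs. The protease share was 39.9% by CPM and 37.4% without members of fractional counts. The 30 detected members became 34 at 0.1 TPM and 28 at 10 TPM. Without either replicate, the summed TPM ranged from 11887 to 14808, the trypsin sum from 938 to 1114, the protease share from 42.3% to 42.9%, and members with a dominant transcript from 25 to 26, with 30 detected in each. Called over all genes were 169 higher and 1237 lower in the binomial test, 56 and 3448 with spike-in scaling, 37 and 531 with at least 100 counts, and 45 and 642 in the edgeR exact test. No paired analysis was possible because the series has 1 group. Ctrc, Pnlip, Gp2 and Cuzd1 had under 100 counts, and the interval of each spanned more than a 2-fold range and held 0, so no difference was detectable at this depth.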
